A study of Mus musculus with 48 samples.

Results

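The C3H_MNX cardiomyocytes were described by 6 of the 48 RNA-sequencing libraries of the series, chosen by the start of the title: 3 libraries titled C3H_MNX_ACF and 3 titled C3H_MNX_sham. MNX stands for mitochondrial-nuclear exchange, in which mice carry the nuclear genome of one strain (C57BL/6J or C3H/HeN) and the mitochondrial genome of the other. ACF is commonly the abbreviation of aortocaval fistula, a surgical shunt between the aorta and the vena cava that returns extra blood to the heart and loads it with volume. The treatment labels read 3day-ACF and 3day-SHAM, so both groups were taken 3 days after surgery, and the genotype tag of all 6 libraries reads MNX C57n:C3Hmt. Collagenase-perfused hearts gave the cells after the right ventricle and atria had been taken away, and preparations had to meet set limits of cardiomyocyte purity and of rod-shaped cells. The labels do not say whether each library came from 1 animal, so the p-values below measure the spread between these libraries. The other 3 groups with a surgery word in their titles gave 3 sham and 3 ACF libraries each at the same time: C3H_wt (tag WT C3H), C57_wt (tag WT C57B6J) and C57_MNX (tag MNX C3Hn:C57mt). They entered the same model, so 24 libraries shared 1 estimate of the spread.

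The genotype tag and the title name different nuclear genomes, and the expression profile of the 6 libraries was that of C3H nuclei. Over the whole series, 22 genes separated all 12 wild-type C3H libraries from all 12 wild-type C57 libraries by more than 1.5 log2 units, at a mean of at least 1 log2 CPM, 15 of them higher in C3H and 7 higher in C57. In each of the 6 C3H_MNX libraries all 22 genes lay nearer to the C3H level. The tag of C57_MNX carries the same doubt. In each of its 6 libraries 0 of the 22 genes lay nearer to the C3H level, so the profile was that of C57 nuclei although the tag names C3Hn. Kcnj14, which encodes a potassium channel subunit, lay between 5.25 and 6.08 log2 CPM (counts scaled to a common library total, on a log2 scale) in the C3H_MNX libraries. It lay between 5.21 and 6.76 in wild-type C3H libraries and between -2.11 and 0.75 in wild-type C57 libraries. The mitochondrial genotype could not be read from gene counts. The libraries are therefore called C3H_MNX here, by their title, with no claim about which mitochondria they carried.

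Cardiomyocytes under volume overload stretch along their length, and stretch and growth factors both activate the RAS, RAF, MEK and ERK kinase cascade. Active ERK induces immediate early genes, a fast wave of transcription regulators, and also its own brakes: Sprouty and SPRED proteins, which act upstream at RAS and RAF, and dual-specificity phosphatases such as DUSP6, which removes phosphate from ERK itself. Stressed heart muscle also raises the natriuretic peptides encoded by Nppa and Nppb.

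Depth was similar among the 6 libraries, with 16.24 to 19.98 M counts each, but the ACF library numbered 6756 stood apart from the other 5. In it the 7 most abundant features held 63.3% of the counts, against 42.7% to 48.9% in the others. The mitochondrial transcripts Cytb, Cox2 and Atpase6 held 22.8%, against 15% to 17.6%. Of 13440 genes tested, 759 were more than 1 log2 unit above the highest of the other 5 libraries in 6756, against 2 to 6 genes in each of the others. All 3 ACF libraries carry the code L8 in their titles, whereas sham libraries 6649, 6652 and 6661 carry L4, L8 and L2. The labels do not explain this code, and apart from the L8 sham library 6652 the code and the surgery cannot be told apart.

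Spry4, which encodes a Sprouty inhibitor of RAS and ERK signalling, was the only gene that passed the test across all genes. Its level was 4.22, 4.46 and 3.86 log2 CPM in ACF libraries 6650, 6662 and 6756, and 2.03, 2.67 and 2.54 in sham libraries 6649, 6652 and 6661. All 3 ACF libraries lay above all 3 sham libraries, by more than 1 log2 unit at the narrowest point. The means were 4.18 ± 0.303 and 2.41 ± 0.339 (SD, n = 3 each). Spry4 rose 3.46-fold, a log2 fold change of 1.79 with a standard error of 0.266 and an adjusted p of 0.0235 by the edgeR quasi-likelihood test with Benjamini-Hochberg adjustment. Without library 6756 it was again the only gene called, of 13741 (0.00728%), with a log2 fold change of 1.92 and an edgeR adjusted p of 0.0234. Leaving out any 1 of the other 5 C3H_MNX libraries ended the call, with log2 fold changes from 1.61 to 1.92 over all 24 single omissions. With the L code as a covariate it was 1.58 (unadjusted p = 3.48e-05, adjusted p = 0.468 by edgeR), and against the single L8 sham library it was 1.54.

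**Figure D1:**
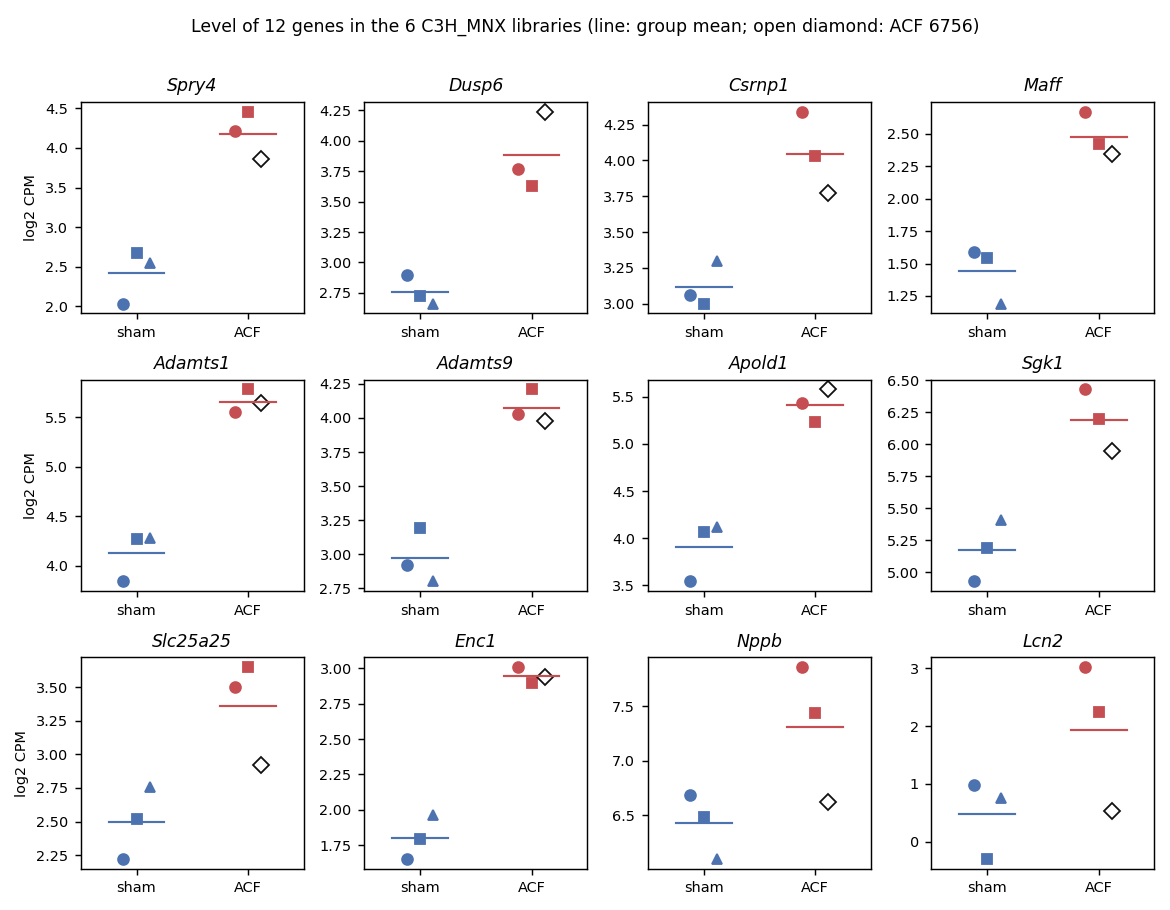
Level (log2 CPM, vertical axis, a separate scale for each panel) of 12 genes in the 3 sham libraries (blue) and 3 ACF libraries (red; 6756 as an open black diamond), with a line at each group mean. In the first 10 panels all ACF libraries lie above all sham libraries; for Nppb and Lcn2 library 6756 lies within the sham range.

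Across all genes, 1 of 13440 was called at an adjusted p below 0.05 (0.00744%). At an unadjusted p below 0.05 the edgeR test had 230 genes (1.71%), 145 of them higher (1.08%) and 85 lower (0.632%). Without 6756 there were 78 higher (0.568%) and 90 lower (0.655%). The 3 ACF libraries lay above the 3 sham libraries for 5.22% of all genes and below them for 4.52%. With library 489 of the C57_wt ACF group left out, the unadjusted count was 729 (5.38%) and Spry4 was again the only call (0.00738% of 13544), with an adjusted p of 0.00689. Library 489 differed from libraries 465 and 490 of its group in the gene Nnt, at 5.33 log2 CPM against 9.04 and 8.96, and in its make-up. The 7 features most abundant in C3H_MNX held 67.5% of its counts, against 53.5% and 41.9%. Cytb, Cox2 and Atpase6 held 24.1%, against 19.5% and 14.7%. DESeq2 called 3 genes (0.0223%): Spry4, Adamts1 and Apold1. limma voom with sample quality weights, which gives a library that fits its group poorly less weight, called 13 genes (0.0967%), 12 higher and 1 lower. An edgeR fit of 5 libraries, those of C3H_MNX without 6756, was added after the data had been seen and called 18 genes of 12697 (0.142%), 16 higher and 2 lower. The 6 C3H_MNX libraries fitted alone gave 0 calls of 12575, with 467 genes at an unadjusted p below 0.05 (3.71%). The limma voom calls and the 5-library calls shared 10 genes, 76.9% of the first and 55.6% of the second: Adamts1, Adamts9, Apold1, Csrnp1, Dusp6, Enc1, Maff, Sgk1, Slc25a25 and Spry4. Slc25a25 and Enc1 fall outside the rule for named genes, as do Spry1, Spry2, Egr1, Adamts6, Wdr92, Tmprss13, BC075671 and Spna1 below. All of these were named after their values were seen.

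**Figure D2:**
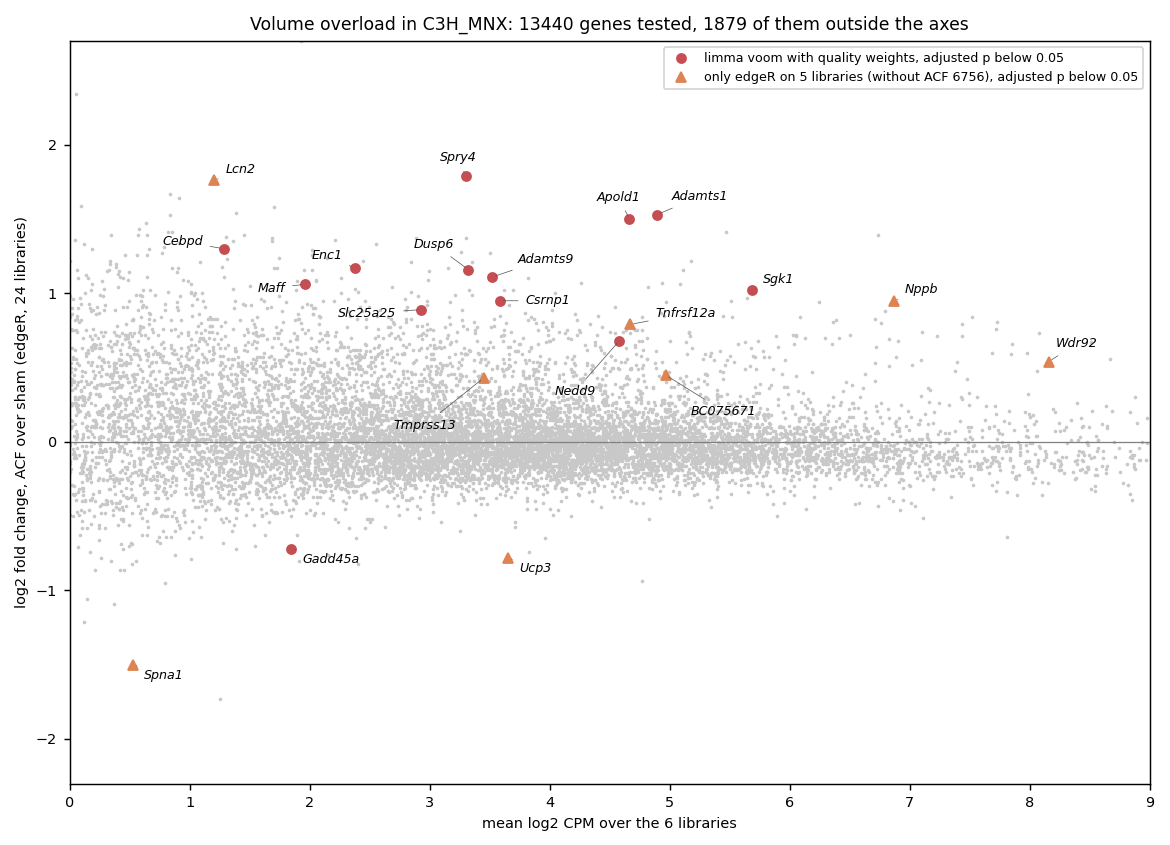
Log2 fold change of ACF over sham (vertical axis, edgeR on 24 libraries) against the mean log2 CPM over the 6 C3H_MNX libraries (horizontal axis), 1 grey point per gene, with 1879 of the 13440 genes outside the axes. Red circles are the 13 genes called by limma voom with quality weights and orange triangles the other 8 genes called by edgeR in the 5 libraries without 6756; 18 of these 21 genes are above 0.

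Dusp6, which encodes the phosphatase that acts on ERK, was the other feedback inhibitor that passed limma voom. It measured 3.77, 3.63 and 4.24 log2 CPM in ACF libraries 6650, 6662 and 6756 and 2.90, 2.72 and 2.66 in sham libraries 6649, 6652 and 6661. The ACF libraries were all higher, and 6756 was the highest. Dusp6 rose by limma voom with a log2 fold change of 0.93 (adjusted p = 0.026) and by edgeR in the 5 libraries with 0.94 (adjusted p = 0.0176), but not in the fit of 24 libraries (1.16 ± 0.261 SE, adjusted p = 0.764). Errfi1, an inhibitor of the epidermal growth factor receptor family, had a log2 fold change of 0.82 ± 0.321 (SE, unadjusted p = 0.0195 by edgeR). Spred1, a Sprouty-related inhibitor of RAS activation, had 0.71 ± 0.3 (SE, unadjusted p = 0.0278 by edgeR). Spry2 at 0.33 and Spry1 at 0.63 also had their 3 ACF libraries above the 3 sham libraries.

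Of 22 listed feedback inhibitors 16 were tested, and 14 of them had a positive log2 fold change with a median of 0.52, beside a median of 0.01 and 52.1% positive over all genes. Without 6756, 49.6% of all genes were positive. By the edgeR test 4 were higher at an unadjusted p below 0.05, namely Spry4, Dusp6, Errfi1 and Spred1, and 0 were lower, beside 1.08% and 0.632% of all genes. For 6 of the 16 the 3 ACF libraries lay above the 3 sham libraries, and for 1 below, beside 5.22% and 4.52% of all genes. Without 6756 the median over 17 tested members was 0.30, and with the L code as a covariate it was 0.28. The 25 tested kinases and adaptors of the cascade itself had a median of 0.07, a range from -0.16 to 0.39, and 0 members at an unadjusted p below 0.05. Ligands and receptors of growth factors, 28 tested, had a median of 0.39 that was 0.11 without 6756, again with 0 members at an unadjusted p below 0.05.

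All 27 tested immediate early genes had a positive log2 fold change, with a median of 0.49, and 11 had their ACF libraries above all sham libraries, beside 52.1% and 5.22% of all genes. By edgeR 5 were higher at an unadjusted p below 0.05, as were 1.08% of all genes. Without 6756, 22 of 27 were positive and the median was 0.26. Csrnp1, an immediate early nuclear protein, stood at 4.34, 4.03 and 3.77 log2 CPM in ACF libraries 6650, 6662 and 6756 and at 3.06, 3.00 and 3.30 in the sham libraries. The groups did not overlap, and 6756 was the lowest ACF library. Csrnp1 rose by limma voom, with a log2 fold change of 0.98 (adjusted p = 0.00774). Maff, a small MAF transcription factor, stood at 2.67, 2.42 and 2.34 in ACF and at 1.59, 1.54 and 1.19 in sham, again without overlap. Its log2 fold change by limma voom was 1.05 (adjusted p = 0.0434). In the edgeR fit of 24 libraries Csrnp1 and Maff had 0.95 and 1.06, without a call. Fosl2, a FOS-family subunit of the AP-1 factor, had 0.59 ± 0.23 (SE, unadjusted p = 0.0183 by edgeR). Egr1, a zinc finger factor induced by ERK, had 0.66 with overlapping groups, and 0.26 without 6756.

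Among the genes that limma voom called, Adamts1 and Apold1 had the largest log2 fold changes after Spry4. Adamts1, a secreted protease that cleaves the proteoglycans of the matrix, measured 5.55, 5.78 and 5.64 log2 CPM in ACF libraries 6650, 6662 and 6756 and 3.84, 4.27 and 4.28 in sham libraries 6649, 6652 and 6661. The 2 groups were more than 1 log2 unit apart, and 6756 lay between the other ACF libraries. Adamts1 rose by limma voom (1.63 ± 0.219 SE, adjusted p = 0.00113) and by DESeq2 (adjusted p = 0.0035), and had 1.53 ± 0.298 (SE, adjusted p = 0.253) by edgeR on 24 libraries. Apold1, an early response gene of endothelial cells, measured 5.44, 5.23 and 5.58 in ACF and 3.54, 4.07 and 4.12 in sham. These groups too were more than 1 log2 unit apart. Apold1 rose by limma voom (1.46 ± 0.235 SE, adjusted p = 0.00774) and by DESeq2 (adjusted p = 0.00359), and had 1.5 ± 0.292 (SE, adjusted p = 0.253) by edgeR. Adamts9, a related protease, measured 4.03, 4.21 and 3.98 in ACF and 2.92, 3.19 and 2.80 in sham. It rose by limma voom with 1.21 (adjusted p = 0.0294), and had 1.11 by edgeR on 24 libraries without a call. The list of ADAMTS proteases held 8 of the 15 family members tested, and these 8 were positive with a median of 1.04 (6 of them, with a median of 0.65, without 6756). Over all 15 members 13 were positive with a median of 0.70, and without 6756 9 were positive with a median of 0.05. Adamts6 at -0.14 was the lowest of them.

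The mean of the 11 endothelial markers was 5.57 and 5.68 log2 CPM in ACF libraries 6650 and 6662 and 5.22 to 5.59 in the sham libraries, and it was 6.77 in 6756. Their part in the Apold1 and Adamts1 results was not tested, and in bulk RNA fewer cells of a type and less RNA per cell cannot be told apart. Without 6756 the log2 fold change was 1.41 for Apold1 and 1.52 for Adamts1 in the fit of the remaining libraries.

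Of the 13 genes that limma voom called, 10 had promoter windows in the RefSeq table for GRCm38.p6, and the 250 bases before each start site were searched on both strands. Spry4, Enc1 and Cebpd had no window there and were not searched. The motif TGACGTCA, the full cyclic AMP response element, was in a window of Maff and of Slc25a25. It was in 1.55% of all 32851 windows and in at least 1 window of 1.77% of all 27025 genes. The shorter TGACG, which lies within it, was in at least 1 window of 7 of the 10 genes and of 19.79% of all 27025 genes. Csrnp1, Maff, Sgk1 and Slc25a25 had several windows each, which gives more places for a match. The shares of genes are therefore not on equal terms, and TGACG was in 17.77% of all windows. A match says only that the letters are there. TGANTCA, the AP-1 motif, was in a window of Csrnp1, in 6.75% of all windows and in at least 1 window of 7.82% of all genes. The CArG box was in no window of the 10 genes, in 1.47% of all windows and in at least 1 window of 1.62% of all genes. The windows of Maff, Slc25a25 and Adamts1 are given 5′ to 3′ on the strand of the gene up to the base before the start site, because they place the matches beside the genes that rose. Capitals mark TGACGTCA in the first and second and TGACG in the third.
Maff, chr15:79347270-79347519, plus strand: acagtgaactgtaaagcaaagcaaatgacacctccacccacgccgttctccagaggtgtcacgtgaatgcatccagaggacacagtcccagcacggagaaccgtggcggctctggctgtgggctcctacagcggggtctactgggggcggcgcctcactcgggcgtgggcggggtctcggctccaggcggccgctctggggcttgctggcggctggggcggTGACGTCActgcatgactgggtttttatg
Slc25a25, chr2:32424067-32424316, minus strand: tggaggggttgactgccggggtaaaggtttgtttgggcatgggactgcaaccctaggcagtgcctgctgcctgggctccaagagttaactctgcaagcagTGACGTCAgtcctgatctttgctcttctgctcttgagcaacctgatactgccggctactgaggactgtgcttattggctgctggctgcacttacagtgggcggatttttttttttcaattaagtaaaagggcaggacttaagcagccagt
Adamts1, chr16:85803114-85803363, minus strand: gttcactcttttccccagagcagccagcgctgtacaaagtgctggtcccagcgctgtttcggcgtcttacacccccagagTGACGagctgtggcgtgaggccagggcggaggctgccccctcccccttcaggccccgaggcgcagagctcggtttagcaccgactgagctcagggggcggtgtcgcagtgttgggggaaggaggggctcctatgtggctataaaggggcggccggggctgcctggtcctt

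In the Maff window the motif begins 29 bases before the start site, in the Slc25a25 window 150 bases and in the Adamts1 window 170 bases before it. Each of Maff and Slc25a25 also had windows at other start sites without the full motif. Slc25a25, a carrier of ATP-magnesium and phosphate in the inner mitochondrial membrane, measured 3.50, 3.65 and 2.92 log2 CPM in ACF libraries 6650, 6662 and 6756 and 2.22, 2.52 and 2.76 in sham libraries. The groups did not overlap, though 6756 was only just above the highest sham library. Slc25a25 rose by limma voom (1.13, adjusted p = 0.00774) and by edgeR in the 5 libraries (1.07, adjusted p = 0.0268). In the edgeR fit of 24 libraries it had 0.89, without a call.

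Sgk1, a kinase induced by serum and glucocorticoids, measured 6.43, 6.20 and 5.95 log2 CPM in ACF libraries 6650, 6662 and 6756 and 4.93, 5.19 and 5.41 in sham libraries. The groups did not overlap, and Sgk1 rose by limma voom (1.10, adjusted p = 0.026). Among 15 glucocorticoid-induced genes the median was 0.37, and 0.26 without 6756, with 12 and then 11 positive. Enc1, an actin-associated protein, was at 3.01, 2.90 and 2.94 in ACF and 1.65, 1.79 and 1.96 in sham. All ACF libraries were higher, with little spread among them, and Enc1 rose by limma voom (1.17, adjusted p = 0.0156). Nedd9, a docking protein of focal adhesions, and Cebpd, a transcription factor of the acute phase response, rose by limma voom with 0.89 (adjusted p = 0.026) and 1.29 (adjusted p = 0.039). Cebpd was read by only 26 to 76 counts per library. In the edgeR fit of 24 libraries Sgk1, Enc1, Nedd9 and Cebpd had 1.02, 1.17, 0.68 and 1.3, without a call.

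Gadd45a, a growth arrest and DNA damage gene, was the 1 gene that limma voom called lower. It measured 1.23, 1.46 and 1.77 log2 CPM in ACF libraries 6650, 6662 and 6756 and 2.23, 2.06 and 2.33 in sham libraries. Every ACF library was lower than every sham library. Gadd45a fell by 0.83 on the log2 scale by limma voom (adjusted p = 0.026), and the edgeR value on 24 libraries was -0.72 (adjusted p = 1). The 18 p53 target and growth arrest genes tested had a median of -0.01, with 9 positive.

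The natriuretic peptide and acute phase genes differed between library 6756 and the other 2 ACF libraries. Nppb, which encodes B-type natriuretic peptide, measured 7.86, 7.44 and 6.62 log2 CPM in ACF libraries 6650, 6662 and 6756 and 6.69, 6.49 and 6.10 in sham libraries. Libraries 6650 and 6662 were above every sham library and 6756 was within the sham range. Nppb had 0.95 ± 0.407 (SE, unadjusted p = 0.031 by edgeR) with all libraries, and rose without 6756 in the 5-library edgeR fit (1.21 ± 0.167 SE, adjusted p = 0.0148). Nppa, the A-type peptide, measured 6.57, 6.65 and 4.52 in ACF and 5.92, 4.73 and 4.70 in sham. Library 6756 was the lowest of all 6. Its log2 fold change was 0.95 with all libraries and 1.37 without 6756, and no edgeR, DESeq2 or limma voom fit called it. Nppa is also 1 of 7 atrial markers, whose summed level was 124, 125 and 28.6 CPM in those ACF libraries and 78.6, 38.5 and 43.6 CPM in sham. The other 6 atrial markers summed to 9.43, 7.84 and 7.37 CPM in ACF and 8.81, 6.95 and 11.9 CPM in sham, so that these groups overlapped.

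Lcn2, a secreted iron-siderophore binding protein of the acute phase, measured 3.02, 2.25 and 0.54 log2 CPM in ACF libraries 6650, 6662 and 6756 and 0.98, -0.30 and 0.75 in sham libraries. Here too 6756 lay within the sham range. Lcn2 had 1.76 ± 1 (SE, adjusted p = 1 by edgeR) with all libraries and rose in the 5-library fit (2.17 ± 0.315 SE, adjusted p = 0.0176). Tnfrsf12a, the receptor of the cytokine TWEAK, measured 5.34, 5.2 and 4.62 in ACF and 4.52, 4.23 and 4.11 in sham, with no overlap. It rose in the 5-library edgeR fit (0.96, adjusted p = 0.0148). Wdr92, Tmprss13 and BC075671 were called higher in that fit as well, with 0.84, 0.79 and 0.79. With 6756 included the ACF and sham libraries of each of them overlapped. In the edgeR fit of 24 libraries they had 0.54, 0.43 and 0.45, without a call there or by limma voom. The 21 acute phase and IL-6 family genes had a median of 0.44 with 20 positive, and 0.26 with 18 positive without 6756. Of 21 natriuretic and fetal stress genes, 16 were positive both with and without 6756, with medians of 0.13 and 0.24.

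The contractile fetal genes gave no call. Myh7, the slow beta myosin heavy chain, measured 10.45, 9.95 and 9.63 log2 CPM in ACF libraries 6650, 6662 and 6756 and 9.98, 10.22 and 9.91 in sham libraries. The groups overlapped, and the log2 fold change was 0.01 ± 0.683 (SE, adjusted p = 1 by edgeR). Acta1, skeletal alpha actin, measured 8.25, 8.54 and 6.23 in ACF and 8.09, 7.49 and 7.69 in sham, so that 6756 lay below and the other ACF libraries above every sham library. Its log2 fold change was 0.19 with all libraries and 0.62 without 6756. The 19 sarcomere genes had a median of -0.11 with 3 positive, and 0.09 with 13 positive without 6756.

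The edgeR test on 24 libraries called 0 genes lower, and 85 were lower at an unadjusted p below 0.05. Hsph1, a heat shock chaperone, measured 4.5, 4.51 and 3.93 log2 CPM in ACF libraries 6650, 6662 and 6756 and 4.79, 5.18 and 5.70 in sham libraries. The groups did not overlap, with a log2 fold change of -0.94 ± 0.297 (SE, unadjusted p = 0.00512, adjusted p = 1 by edgeR). Of 22 heat shock genes 4 were positive with a median of -0.18, and without 6756 10 were positive with a median of -0.01. Among genes with a mean of at least 3 log2 CPM, no overlap between groups and an unadjusted p below 0.05, Hsph1 was followed in size by Trim7 at -0.74, a ubiquitin ligase, and Aox1 at -0.65, aldehyde oxidase. Capn3 at -0.54, the muscle calpain, and Phkg1 at -0.50, the catalytic subunit of muscle phosphorylase kinase, were the next. Ucp3, a mitochondrial carrier under PPAR control, measured 3.21, 3.14 and 3.45 in ACF and 3.85, 4.25 and 4.03 in sham. Ucp3 fell by 0.90 on the log2 scale in the 5-library edgeR fit (adjusted p = 0.0335), and had -0.78 by edgeR on 24 libraries (adjusted p = 1). The 14 tested PPAR target genes had a median of -0.16, and of -0.20 without 6756, with 5 positive in each case.

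Spna1, the erythroid alpha spectrin, also fell in the 5-library edgeR fit, by 1.96 on the log2 scale (adjusted p = 0.0285). Its level was -0.65, -0.40 and 0.48 log2 CPM in ACF libraries 6650, 6662 and 6756 and 1.01, 1.39 and 1.34 in sham libraries, from 12 to 50 counts per library. Spna1 is 1 of the 9 erythrocyte markers found in the file. The summed level of these 9 was 243, 566 and 372 CPM in the ACF libraries and 102 to 396 CPM in the sham libraries. In the edgeR fit of 24 libraries 5 of the 7 markers tested were positive, with a median log2 fold change of 0.50. In the 5-library fit 2 of the 6 markers tested were positive, with a median of -1.22. The part of these markers in the Spna1 result was not tested.

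Among genes with a mean of at least 3 log2 CPM, an unadjusted p below 0.05 and no overlap between groups, 47 were higher and 24 lower by edgeR on 24 libraries. Over all 13440 genes that p was passed by 1.08% higher and 0.632% lower, and 5.22% and 4.52% had no overlap. The number of genes at that mean is not given here, so 47 and 24 have no share of their own. Besides the genes above, the largest of the 47 higher genes included Rbp7, a retinol-binding protein, at 1.00 ± 0.465 (SE). Btnl9, a butyrophilin-like gene, had 0.89 ± 0.312 (SE), and Akap12, a scaffold of protein kinase A and C, had 0.87 ± 0.323 (SE). Mcam, an adhesion molecule of vascular cells, had 0.86 and Sema7a, a membrane-anchored semaphorin, had 0.85. Without 6756 these 5 genes had 1.12, 0.74, 0.63, 0.57 and 0.64 in that order.

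Markers of fibroblasts, macrophages, endothelium and mesothelium were higher in library 6756 than in the other 5 libraries. The mean of the 11 fibroblast markers was 5.97 log2 CPM in 6756, against 4.11 and 4.55 in the other ACF libraries and 4.24 to 4.5 in the sham libraries. Their summed level was 1549 CPM, against 576 to 746 CPM in the other 5. Macrophage markers, 12 in the file, had a mean of 3.63 in 6756 and of 1.57 to 2.15 elsewhere, with sums of 203 CPM and of 61.5 to 104 CPM. Smooth muscle and pericyte markers had 4.87 against 3.76 to 4.18, while their sum of 922 CPM lay within the 807 to 943 CPM of the others. Mesothelial and epicardial markers had 3.12 against 0.36 to 1.42. The 13 cardiomyocyte markers were all present, with a mean of 10.95 in 6756 and of 11.43 to 11.65 elsewhere, and sums of 38720 CPM and of 64180 to 74260 CPM. Neutrophil markers had a mean of -2.23 to -1.01, all 11 lymphocyte markers stayed below 10 counts in every library, and the atrial marker Bmp10, the adipocyte markers Lep and Retn and the mast cell marker Ms4a2 were at 0. Means of Schwann and nerve, adipocyte and mast cell markers were at most 0.34.

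**Figure D3:**
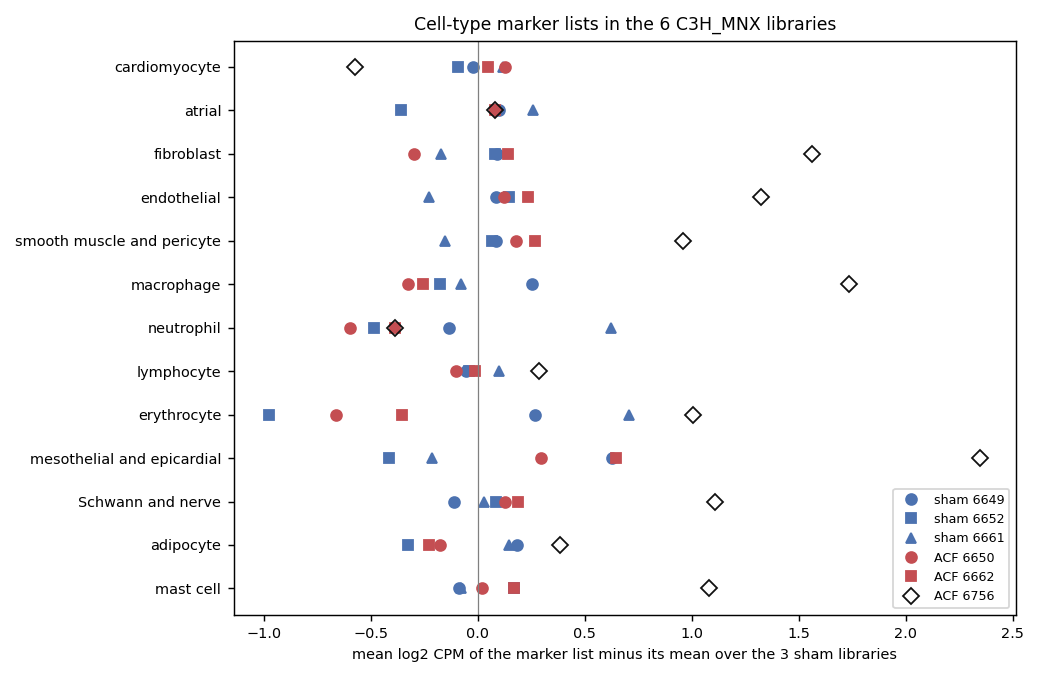
Mean log2 CPM of each cell-type marker list minus its mean over the 3 sham libraries (horizontal axis) for the 6 C3H_MNX libraries. Blue marks are sham, red marks ACF and the open black diamond ACF 6756, which is the highest library for fibroblast, endothelial, macrophage and mesothelial markers and the lowest for cardiomyocyte markers.

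Several group differences had other values without 6756, and the part of the markers in this was not tested. All 29 collagen and structural matrix genes had a positive log2 fold change with a median of 0.82, and without 6756 14 of 29 were positive with a median of -0.04. Col1a1, the main chain of type I collagen, measured 4.18, 4.82 and 6.5 log2 CPM in ACF libraries 6650, 6662 and 6756 and 4.49, 4.72 and 4.22 in sham libraries. Only 6756 lay clearly above the sham range, and the log2 fold change of Col1a1 was 1.04 with it and 0.04 without. The chemokine and cytokine list had a median of 0.73 with 6756 and 0.08 without, interferon response genes 0.31 and -0.15, and matricellular proteins 0.81 and 0.24. The angiopoietin and VEGF list, which holds Apold1, had 0.52 and 0.10.

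Nuclear genes of the respiratory chain had lower values with that library than without it. Of 37 complex I genes 5 were positive with a median of -0.11, and without 6756 33 were positive with a median of 0.12. For the 40 genes of complexes II to V the counts were 2 and 37, with medians of -0.13 and 0.10. The 24 genes of the TCA cycle and amino acid oxidation had -0.11 and 0.11, and the 28 of fatty acid uptake and oxidation had -0.18 and 0.01. No gene of complexes I to V passed an unadjusted p of 0.05 by edgeR with 6756 or without it, where 1.22% of all genes did. Cytb, the mitochondrially encoded cytochrome b, measured 15.57, 15.78 and 16.63 log2 CPM in ACF libraries 6650, 6662 and 6756 and 15.87, 15.79 and 15.68 in sham libraries. Its log2 fold change was 0.30 with 6756 and -0.11 without. Over all 35 pathway lists the sign of the median differed with and without 6756 in 16.

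**Figure D4:**
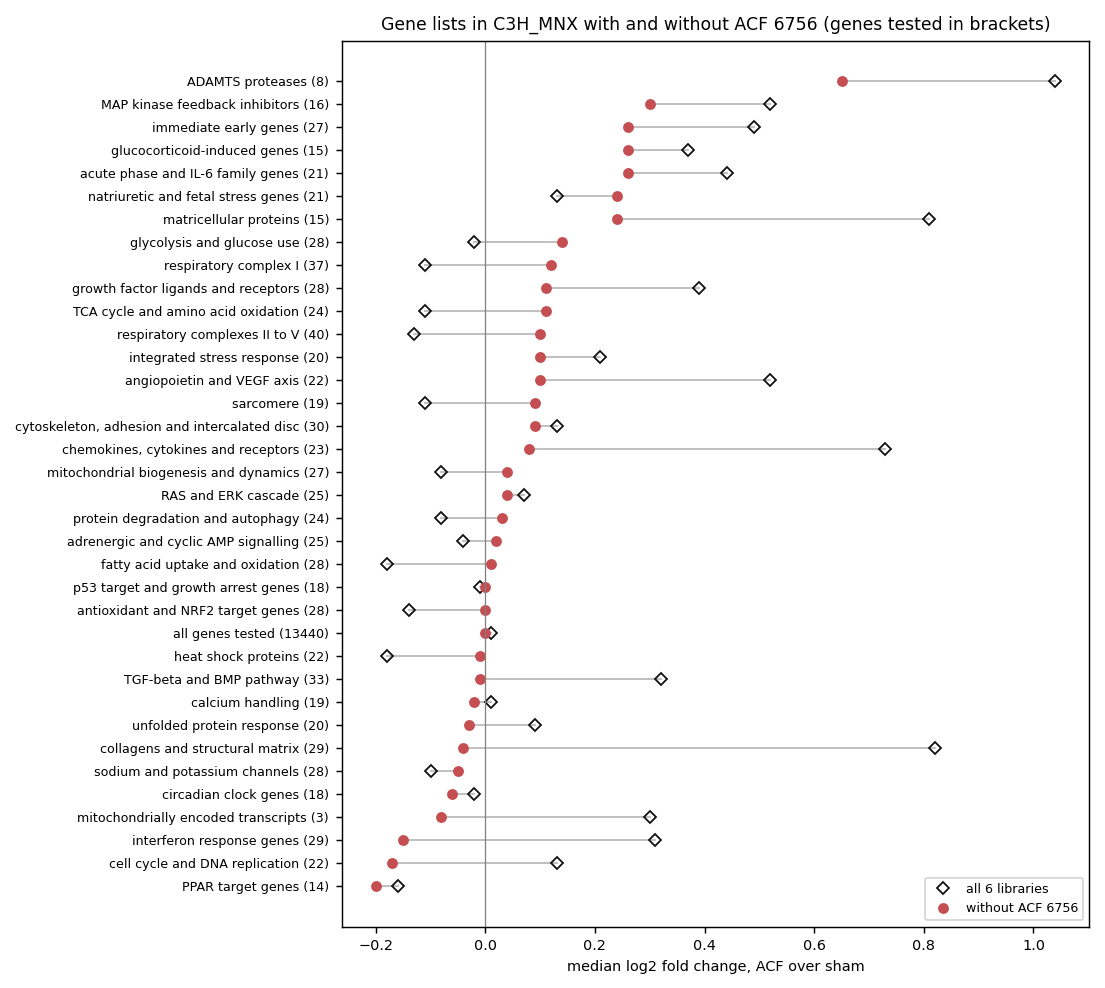
Median log2 fold change of ACF over sham (horizontal axis) for 35 gene lists and all genes tested, with all 6 C3H_MNX libraries (open diamonds) and without ACF 6756 (red circles), ordered by the second. The listed ADAMTS proteases and MAP kinase feedback inhibitors are the highest without 6756, at 0.65 and 0.30. Over all 15 ADAMTS members tested that median is 0.05, and the lists were chosen with earlier results of these data known. Immediate early, acute phase and glucocorticoid-induced genes follow, each at 0.26, whereas collagens go from 0.82 to -0.04.

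The ACF response of C3H_MNX was set beside that of the other 3 title groups, which share no library with it. Their mean response had 7 calls by edgeR (0.0521% of 13440), and the 4 higher and 3 lower genes had the same sign in C3H_MNX. Without library 489 the other groups had 72 calls (0.532% of 13544). Of the 52 higher genes 48 were positive in C3H_MNX, beside 6952 of the 13435 genes tested both with and without 489. At an unadjusted p below 0.05 by edgeR were 17 of the 48, which 3.73% of all genes passed in that direction. Of the 20 lower genes 18 were negative, beside 6473 of the 13435, and 7 of the 18 passed that p, beside 1.65% of all genes. Both responses used the same estimate of the spread of each gene, and a small estimate lowers both p-values. The shares at that p are therefore not on equal terms. The medians were 0.63 in the other groups and 0.29 in C3H_MNX for the higher genes, and -0.60 and -0.26 for the lower genes. Nppb at 0.95 and Tnfrsf12a at 0.79 in C3H_MNX had 1.33 and 1.02 in the other groups. Iigp1, an interferon-induced GTPase, had -0.36 in C3H_MNX and -1.56 in the other groups. Angpt1, the ligand of the endothelial receptor TIE2, had -0.44 and -1.05.

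Differences between the responses were tested as interactions, and edgeR called 0 genes for C3H_MNX minus the mean of the other groups, 0 minus C3H_wt and 0 minus C57_MNX. At an unadjusted p below 0.05 there were 246 (1.83%), 398 (2.96%) and 232 (1.73%) genes. DESeq2 called 0, 1 (0.00744%) and 0 genes. limma voom with quality weights called 1 (0.00744%), 0 and 1 genes, and the gene was Spry4 both times. In C3H_wt the log2 fold change of Spry4 was 0.62, in C57_wt 0.41 and in C57_MNX 0.27. Spry4 in C3H_MNX exceeded the mean of the other groups by 1.35 ± 0.303 (SE, unadjusted p = 0.000253, adjusted p = 1) by edgeR and by 1.74 (adjusted p = 0.00114) by limma voom. Its 3 ACF libraries in C3H_MNX were the highest of all 24, with the other 21 libraries between 1.85 and 3.29 log2 CPM. The same held for Apold1, whose other 21 libraries lay between 2.63 and 4.68, and its interaction was 0.70 with an unadjusted p of 0.0493 by edgeR. The sham mean of Apold1 was also highest in C3H_MNX, at 3.91, against 3.26 in C3H_wt, 3.45 in C57_MNX and 2.93 in C57_wt. In each of those groups the ACF mean lay above the sham mean, at 3.88, 3.95 and 4.07.

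Among genes with a mean of at least 3 log2 CPM that were higher by the interaction, Steap4 and Rgs5 had the next smallest p-values after Spry4. Steap4, a metalloreductase, had 0.67 in C3H_MNX and -0.45 in the other groups (unadjusted p = 0.00235 for the difference, adjusted p = 1, edgeR). Rgs5, a regulator of G protein signalling and a pericyte marker, had 0.70 and -0.66 (unadjusted p = 0.00673). Rgs5 measured 6.26, 6.20 and 7.31 log2 CPM in ACF libraries 6650, 6662 and 6756 and 5.96, 6.09 and 5.93 in sham libraries, and without 6756 its log2 fold change in C3H_MNX was 0.23. For Steap4 that value was 0.24.

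Myh7 differed in its starting level. Its sham mean was 10.03 ± 0.164 log2 CPM in C3H_MNX and 9.99 ± 0.045 in C3H_wt, against 6.99 ± 1.01 in C57_MNX and 4.91 ± 1.09 in C57_wt (SD, n = 3 each). The log2 fold change of Myh7 was 0.01 in C3H_MNX, 0.91 in C3H_wt, 1.06 in C57_MNX and 4.01 in C57_wt. The interaction of C3H_MNX with the mean of the others was -1.98 ± 0.802 (SE, unadjusted p = 0.0227, adjusted p = 1 by edgeR).

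**Figure D5:**
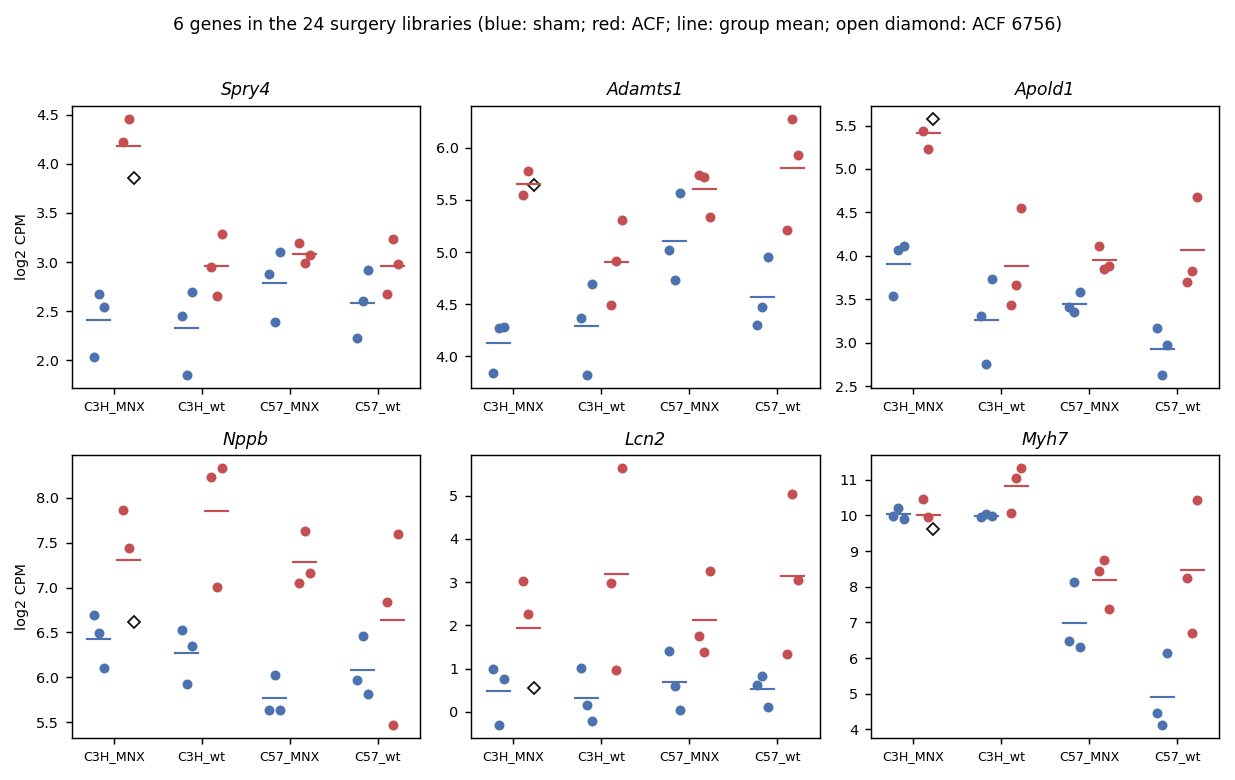
Level (log2 CPM, vertical axis, a separate scale for each panel) of 6 genes in the 24 libraries of the 4 title groups (horizontal axis), sham in blue and ACF in red, with a line at each group mean and ACF 6756 as an open diamond. Spry4 and Apold1 are highest in the 3 C3H_MNX ACF libraries, and Myh7 lies near 10 in both groups of C3H_MNX.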

How the data were processed

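Stranded mRNA libraries were sequenced on an Illumina HiSeq. The deposited table gives unnormalized expected counts for 30743 gene symbols, and 13.9% of its values were not whole. Per the submitters' processing notes, CASAVA 1.8.2, Bowtie and RSEM 1.2.0 were used with mm9; the labels' protocols name the provider's own mapping, and which made the table is not settled. RSEM divides reads among near-identical genes, so such copies are uncertain. The table held 0 columns from other samples, and 0 rows lacked a gene name. Values were rounded and tested in R 4.3.3 with edgeR 4.0.16 (quasi-likelihood F test, TMM, filter on low counts by group, 13440 genes, threshold 0.05) on the 24 libraries with a surgery word in the title. Standard errors are the log2 fold change over the square root of F; levels are in log2 CPM (prior count 2). DESeq2 1.42.0, limma 3.58.1 voom with quality weights, other normalizations, filters and single omissions were alternatives. Chi-square per degree of freedom between libraries of a C3H_MNX group was at least 12.18, so none was the same library sequenced again. This value cannot show whether libraries came from different animals. Named genes were those called, then up to 12 per direction by size at an unadjusted p below 0.05 without overlap and a mean of at least 3 log2 CPM, up to 4 per pathway list by p, the lowest p of each interaction, the calls of the other groups and fixed markers. The members, the 35 pathway and 13 marker lists and the rule were chosen with earlier results of these data known.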

Additional observations from a re-analysis of the deposited data

How the results depend on the processing

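The number of genes called for ACF against sham in C3H_MNX was 1 in the edgeR fit of 24 libraries, 0 to 1 when 1 library was left out (0 without 6650, 6662, 6649, 6652 or 6661), 0 with the L code as a covariate, 0 in the 4 libraries coded L8, 0 in the 6 C3H_MNX libraries alone, 2 without libraries 489 and 6756 (Spry4 higher, Spna1 lower), 3 with DESeq2, 13 with limma voom and 18 in the 5 libraries without 6756. For the mean response of the other groups the count was 7, and 0 to 107 when 1 library was left out, with 107 without C57_wt ACF library 465. It was 181 without 489 and 6756, 181 with DESeq2, 926 with limma voom, 21 without mitochondrial transcripts and Rn45s, and 2 with no filter on low counts. For the interactions the counts of 0 held in every single omission. limma voom gave 1 for C3H_MNX minus the other groups and 1 minus C57_MNX (Spry4), and DESeq2 gave 1 minus C3H_wt (Scgb1a1, lower). Of 43 genes followed, 40 kept their sign in up to 35 settings. Acta1, at 0.19, ranged from -0.22 (without 6662) to 0.62 over single omissions. Cytb, at 0.30, ranged from -0.11 to 0.50 and was -0.11 without 6756, -0.10 without 489 and 6756, -0.01 with limma voom and -0.11 in the 5 libraries. Myh7, at 0.01, ranged from -0.24 to 0.17 and was 0.00 in the 6 libraries alone, -0.19 in the L8 libraries, and -0.24, -0.03 and -0.05 without 6650, 6649 and 6661. Quality weights and the 5-library fit call more genes from 3 libraries or fewer per group, and with groups this small the absence of a call does not show that a gene was unaltered. No paired analysis was possible because the groups share no replicate number.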
